A study of Rattus norvegicus with 8 samples.

Results

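The 10 genes described here encode secreted or membrane-anchored signals: 3 CC chemokines (Ccl2, Ccl7 and Ccl20), 5 CXC chemokines (Cxcl1, Cxcl10, Cxcl12, Cxcl14 and Cxcl16), the CX3C chemokine Cx3cl1 and the cytokine interleukin 6 (Il6). They were chosen by name, with earlier results of these data known, and each matched 1 of the 31699 rows of the deposited gene table. The samples were annulus fibrosus cells (AFCs), the fibroblast-like cells of the outer ring of the intervertebral disc, isolated from Sprague Dawley rats and used at the third passage. All 8 samples received cyclic mechanical stretch (CMS) at 0.5 Hz and 20% elongation for 36 h, so no unstretched sample was part of the comparison. The 4 Lv-Ctrl samples carried the empty short hairpin RNA vector pLVX-shRNA-Puro and the 4 Lv-Piezo1 samples the same vector with a hairpin against Piezo1, a stretch-gated cation channel, each added at a multiplicity of infection of 20 and left for 24 h. Each isolation pooled tissue of 8 rats, and 1 hairpin sequence was used. The study's methods give 3-month-old males for its animal experiments and do not restate age or sex for the cell donors. The comparison asks how lowering Piezo1 alters gene expression in stretched AFCs.

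Chemokines are small proteins that attract cells along a gradient through G protein-coupled receptors on the responding cell, and are classed by the spacing of their first conserved cysteines. Many of them, and Il6, are induced in fibroblasts and disc cells by NF-kB and AP-1 factors after inflammatory or mechanical stimulation, whereas Cxcl12 and Cxcl14 are regarded as largely homeostatic. Interleukin 6 acts through its receptor Il6r and the shared signalling subunit Il6st (gp130), which activates JAK kinases and Stat3. In the degenerating disc, chemokines and Il6 are known for their association with macrophage entry, matrix loss and pain.

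The transcript of the targeted gene did not follow the labels. The Piezo1 level, in TPM (a transcript level scaled to transcript length and to a fixed total per sample), was 31.1, 33.0, 26.7 and 29.5 in Lv-Ctrl samples 1 to 4 and 38.1, 37.7, 40.2 and 41.4 in the samples labelled Lv-Piezo1. The groups did not overlap and the labelled knockdown was the higher (log2 fold change 0.38, SE 0.0649, adjusted p = 8.6e-04, and 0.22 under median-ratio scaling). Transcript levels do not measure the channel protein or its activity, and Lv-Piezo1 is used below as the label of a group. TPM keeps no sequencing depth, so counting error is unknown. Correlations between samples over all tested genes lay between 0.973 and 0.983 within a group and between 0.939 and 0.945 across the groups.

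Markers of other cells were read beside the chemokines. The annulus fibrosus and fibroblast list summed to 14080 to 16720 TPM in Lv-Ctrl and 15800 to 17180 TPM in the samples labelled Lv-Piezo1, while the tendon and annulus marker Tnmd was at or near 0. Its members went both ways. The proteoglycan gene Dcn fell (log2 fold change -1.49), Fmod, Mkx and Thbs2 were lower (-0.99, -0.76 and -0.56), and Col1a1 and Scx were higher (0.83 and 0.89). Of 12 macrophage genes, Adgre1, Cd163 and Tyrobp were listed at 0 in every sample and Ptprc (CD45) did not exceed 0.01 TPM, and the list's sum of 136.4 to 142.9 against 149.5 to 155.6 TPM came mostly from Fcer1g and Cd14. Cd68, a lysosomal protein used as a macrophage marker, was at 0.955 ± 0.899 TPM in Lv-Ctrl and rose to 12.32 ± 0.901 TPM (mean ± SD of 4 samples), passing the filter on low values through that group. The 8 lymphocyte markers with a row summed to at most 0.43 TPM and the 7 endothelial markers to at most 0.62 TPM in any sample. The smooth muscle and pericyte list moved most with the groups. Its sum was 441.6 to 450.7 TPM in Lv-Ctrl and 4549 to 4721 TPM in the samples labelled Lv-Piezo1. Of its 8 tested genes, 6 rose, as defined below (Acta2, Tagln, Myh11, Cnn1, Des and Mcam), beside 4.91% of all 13103 tested genes. Cspg4 and Pdgfrb were higher but short of the fold threshold (log2 fold changes 0.78 and 0.15). Rgs5 was below the filter on low values (means 0.1625 and 0.2575 TPM), and its groups overlapped. The chondrocyte-like list summed to 33.07 to 39.6 and 52.75 to 56.37 TPM, mostly from Acan (means 31.56 and 47.13 TPM). In that list Comp was at 0.7375 and 2.86 TPM and Sox9 at 3.893 and 3.855 TPM. The nucleus pulposus and notochord list summed to 5.78 to 6.68 and 22.13 to 26.68 TPM. Its difference came mostly from Cd24 (means 3.79 and 21.86 TPM), with Krt8 at 2.56 and 3.17 TPM and Tbxt at 0 throughout. The part of these shifts in the chemokine values was not tested, and in bulk RNA fewer cells of a type and less RNA per cell cannot be told apart.

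The chemokines moved in both directions. Ccl20 and Cxcl12 fell and Cxcl10 and Cxcl14 rose, with an adjusted p under 0.05 in limma and at least a doubling or halving (1 or more on the log2 scale, in either direction), which is what rose and fell mean throughout. Those were 4 of 10 members, 2 in each direction, beside 7.67% of the 13103 tested genes called in either direction, 4.91% called higher and 2.76% called lower. The count includes Cxcl14, which passed the filter on low values only through the group where it was high. With that filter at a mean TPM of 5, Cxcl14 was not tested and 1 member was called higher and 2 lower. The higher genes made up 64.1% of all called, 48.8% with quantile-normalized values and 52.3% with median-ratio scaling. The other 6 members passed the adjusted p but not the fold: Ccl2, Il6, Cx3cl1, Ccl7 and Cxcl16 were higher and Cxcl1 lower. An adjusted p under 0.05 was common in this comparison (58.2% of tested genes), and so was the absence of overlap between the groups (54.2%), which all 10 members showed, 7 upward and 3 downward. With 4 samples against 4, the exact two-sided permutation p of each member was 0.029, the smallest the 70 relabelings allow. The median log2 fold change of the members was 0.629, and that of all tested genes 0.142. Scaling the samples to a common median ratio moved the latter to -0.0046, and under that scaling no member changed direction or call.

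**Figure D1:**
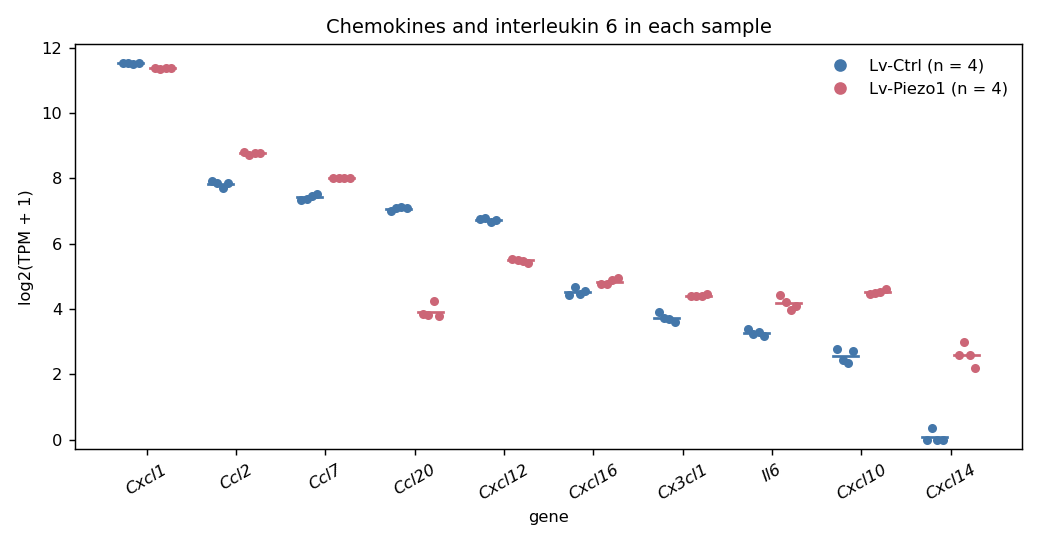
Level of each gene as log2(TPM + 1) in the 4 Lv-Ctrl (blue) and the 4 Lv-Piezo1-labelled (red) samples. Points are samples and bars are group means. Genes are ordered by their Lv-Ctrl mean, from Cxcl1 at 2949 TPM to Cxcl14, and no gene's groups overlap.

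The promoter sequences of the 4 called members are shown because these genes moved most and in opposite directions. They are the 250 bases before the transcription start in RefSeq's rat assembly GRCr8, 5′ to 3′ in the orientation of the gene. The windows lie at chr9:91836909-91837158 for Ccl20, chr14:15988816-15989065 for Cxcl10, chr4:152060531-152060780 for Cxcl12 and chr17:8322900-8323149 for Cxcl14, each on the + strand. Capitals mark matches on either strand to the kappaB motif (the NF-kB consensus), to the AP-1 motif TGANTCA or to the interferon-stimulated response element (ISRE).
Ccl20: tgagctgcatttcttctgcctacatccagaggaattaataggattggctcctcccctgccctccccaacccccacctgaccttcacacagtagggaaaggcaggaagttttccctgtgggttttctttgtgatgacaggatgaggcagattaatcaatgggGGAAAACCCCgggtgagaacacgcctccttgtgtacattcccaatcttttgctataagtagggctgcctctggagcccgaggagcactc
Cxcl10: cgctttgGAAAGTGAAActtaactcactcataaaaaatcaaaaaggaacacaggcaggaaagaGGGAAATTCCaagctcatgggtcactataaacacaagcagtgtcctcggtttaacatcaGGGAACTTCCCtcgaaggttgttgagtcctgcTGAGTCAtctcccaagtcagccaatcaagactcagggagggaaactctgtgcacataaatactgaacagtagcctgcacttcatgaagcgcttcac
Cxcl12: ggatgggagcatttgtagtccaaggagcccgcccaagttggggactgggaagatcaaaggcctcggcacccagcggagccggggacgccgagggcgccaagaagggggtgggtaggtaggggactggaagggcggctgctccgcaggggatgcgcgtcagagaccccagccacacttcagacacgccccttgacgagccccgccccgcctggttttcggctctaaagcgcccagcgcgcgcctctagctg
Cxcl14: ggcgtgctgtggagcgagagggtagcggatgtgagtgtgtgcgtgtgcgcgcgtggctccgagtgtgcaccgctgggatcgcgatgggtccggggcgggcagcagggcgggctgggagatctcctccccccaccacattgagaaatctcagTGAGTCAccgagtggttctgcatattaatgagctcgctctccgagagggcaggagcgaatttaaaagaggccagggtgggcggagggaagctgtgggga
The Ccl20 window held 1 kappaB match, beginning 89 bases before the start. The Cxcl10 window held 3 kappaB matches, beginning 187, 128 and 127 bases before the start with the last 2 overlapping, 1 AP-1 match at 96 bases and 1 ISRE match at 243 bases. The Cxcl14 window held an AP-1 match at 99 bases, and the Cxcl12 window, at 67.6% G and C against a median of 51.2% over all windows, held none of the 6 motifs searched.

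Promoters were found for 9 of the 10 members, without Ccl2. A kappaB match was present in 5 of the 9 windows (Ccl7, Ccl20, Cxcl1, Cxcl10 and Il6), and in 6.33% of all 33469 rat promoter windows of the same length. AP-1 matches were in 3 of the 9 (Ccl7, Cxcl10 and Cxcl14) and in 6.34% of all, and a C/EBP match (TTGCNNAA) in Il6 alone of the 9, beginning 152 bases before its start, and in 9.22% of all. An ISRE match was in the Cxcl10 window alone of the 9 and in 3.41% of all, while neither the STAT motif TTCNNNGAA (7.67% of all) nor the CArG box (1.5% of all) was found in any of the 9. The windows with a kappaB match thus belonged to a gene that fell (Ccl20), a gene that rose (Cxcl10) and 3 that were not called. A match is only a string of letters, and binding was not measured.

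Ccl20 had the largest fitted change of the members on the log2(TPM + 1) scale. With 0.1 in place of 1 that place went to Cxcl14 (5.21 against -3.23 for Ccl20). It encodes the ligand of Ccr6, which draws Th17 cells, immature dendritic cells and B cells (gene ENSRNOG00000015992). Its level was 127.5, 134.6, 138.5 and 134.9 TPM in Lv-Ctrl samples 1 to 4, and 13.3, 13.2, 17.98 and 12.8 TPM in the samples labelled Lv-Piezo1. Every Lv-Ctrl value was above every Lv-Piezo1-labelled value, and sample 3 stood above the other 3 of its group. Means (± SD of 4 samples, as in all that follow) were 133.9 ± 4.58 and 14.31 ± 2.46 TPM, so Ccl20 fell 9.36-fold (log2 fold change -3.15, SE 0.0955, adjusted p = 1.56e-08).

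Ccl2 and Ccl7, ligands of Ccr2 that recruit monocytes, were both higher in the samples labelled Lv-Piezo1. The Ccl2 level (ENSRNOG00000007159) was 242.7, 232.3, 207.0 and 231.5 TPM in Lv-Ctrl and 443.7, 419.3, 439.7 and 443.0 TPM in the samples labelled Lv-Piezo1. The ratio of the means, 228.3 ± 15.1 and 436.4 ± 11.6 TPM, was 1.91, so Ccl2 stayed just under the fold threshold (log2 fold change 0.93, SE 0.0485, adjusted p = 4.67e-07). It did so under each of the 15 alternatives tried, with log2 fold changes from 0.771 to 0.9635. The Ccl7 level (ENSRNOG00000000239) was 161.8, 165.7, 174.7 and 184.7 TPM in Lv-Ctrl. It was 257.6, 258.7, 257.0 and 254.8 TPM in the samples labelled Lv-Piezo1, a ratio of 1.5 between means of 257.0 ± 1.66 and 171.7 ± 10.2 TPM (log2 fold change 0.58, SE 0.0417, adjusted p = 3.67e-06). In the RefSeq gene order these genes are next to each other on rat chromosome 10, followed by Ccl11 and Ccl12. Neither of those was measurable here, with at most 0.25 TPM of Ccl11, an eosinophil attractant, and 0 of Ccl12 in every sample.

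Cxcl1 was the most abundant chemokine in every sample. It encodes a neutrophil attractant that acts through Cxcr2 (ENSRNOG00000002802). Its level was 2962, 2942, 2910 and 2980 TPM in Lv-Ctrl and 2679, 2641, 2655 and 2664 TPM in the samples labelled Lv-Piezo1. The groups did not overlap, but the difference was small, 2949 ± 30.3 against 2660 ± 16.0 TPM, a ratio of 0.902 (log2 fold change -0.15, SE 0.0231, adjusted p = 4.91e-04). It no longer passed after quantile normalization (log2 fold change -0.066, adjusted p = 0.246), and was -0.31 with median-ratio scaling. Of its relatives nearby on chromosome 14, Cxcl2 was 30.37 ± 2.67 and 51.84 ± 2.71 TPM (log2 fold change 0.76, adjusted p = 1.31e-05), and Cxcl3 was 71.76 ± 8.28 and 67.21 ± 3.29 TPM (log2 fold change -0.087, adjusted p = 0.369). Whether reads shared by these related genes were split between them in the counting is not given in the sources used here.

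Cxcl10 rose. This interferon-inducible chemokine attracts activated T cells and natural killer cells through Cxcr3 (ENSRNOG00000022256). Its level was 5.80, 4.46, 4.06 and 5.59 TPM in Lv-Ctrl and 21.2, 21.7, 22.0 and 23.6 TPM in the samples labelled Lv-Piezo1. The groups lay far apart relative to their spread, and the mean rose 4.45-fold, from 4.978 ± 0.849 to 22.14 ± 1.06 TPM (log2 fold change 1.96, SE 0.098, adjusted p = 3.72e-07). The genes on either side of it in the RefSeq order, Cxcl11 and Cxcl9, encode the other ligands of Cxcr3. Cxcl11 was at 0.08 TPM or less in Lv-Ctrl and at 0.27 to 0.55 TPM in the samples labelled Lv-Piezo1, and Cxcl9 did not exceed 0.17 TPM in any sample.

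Cxcl12 and Cxcl14, the homeostatic pair, moved in opposite directions. Cxcl12 (ENSRNOG00000013589), which retains stem cells and guides migrating cells through Cxcr4 and is cleared by Ackr3, was at 108.3, 109.6, 100.1 and 105.0 TPM in Lv-Ctrl. In the samples labelled Lv-Piezo1 it was at 45.6, 44.6, 43.5 and 41.9 TPM, below every Lv-Ctrl value. The mean fell from 105.8 ± 4.23 to 43.9 ± 1.6 TPM, 2.41-fold lower (log2 fold change -1.25, SE 0.0412, adjusted p = 2.58e-08). Cxcl14 (ENSRNOG00000011984), a chemokine of epithelia and stroma, was listed at 0 in 3 of the 4 Lv-Ctrl samples and at 0.27 TPM in sample 2. In the samples labelled Lv-Piezo1 it was at 5.08, 6.95, 5.02 and 3.61 TPM. It passed the filter on low values only through that group. No ratio is given against a group listed at 0 in 3 of its 4 samples. The fitted log2 fold change on the scale of TPM + 1 was 2.51 (SE 0.174, adjusted p = 2.87e-06). That value depends on the constant added, as given above.

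Cxcl16 and Cx3cl1 are made as transmembrane proteins that tether cells bearing Cxcr6 and Cx3cr1 and are shed by the metalloproteases Adam10 and Adam17. Cxcl16 (ENSRNOG00000026647) was at 20.6, 24.4, 20.9 and 22.4 TPM in Lv-Ctrl and at 26.0, 26.0, 28.8 and 29.9 TPM in the samples labelled Lv-Piezo1. The gap between the groups was narrow and the ratio of the means was 1.25 (log2 fold change 0.31, SE 0.0682, adjusted p = 0.00348, and 0.16 with adjusted p = 0.0462 under median-ratio scaling). Cx3cl1 (ENSRNOG00000016326) was at 14.1, 12.3, 12.0 and 11.1 TPM in Lv-Ctrl and at 20.1, 20.1, 20.01 and 20.9 TPM in the samples labelled Lv-Piezo1, a ratio of 1.64 (log2 fold change 0.68, SE 0.0673, adjusted p = 2.99e-05). Its chromosome 19 neighbours Ccl17 and Ccl22 did not exceed 0.27 and 0.06 TPM.

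Il6 (ENSRNOG00000010278) stood far below Cxcl1 and Ccl2 in level and was higher in the samples labelled Lv-Piezo1. Its level was 9.47, 8.49, 8.82 and 8.02 TPM in Lv-Ctrl and 20.8, 17.4, 14.8 and 16.2 TPM in the samples labelled Lv-Piezo1. The second group was the more spread of the 2, with a coefficient of variation of 14.7% against 7.0%. The means of 8.7 ± 0.609 and 17.3 ± 2.53 TPM gave a ratio of 1.99, under the fold threshold on the fitted scale (log2 fold change 0.91, SE 0.0963, adjusted p = 4.51e-05).

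**Figure D2:**
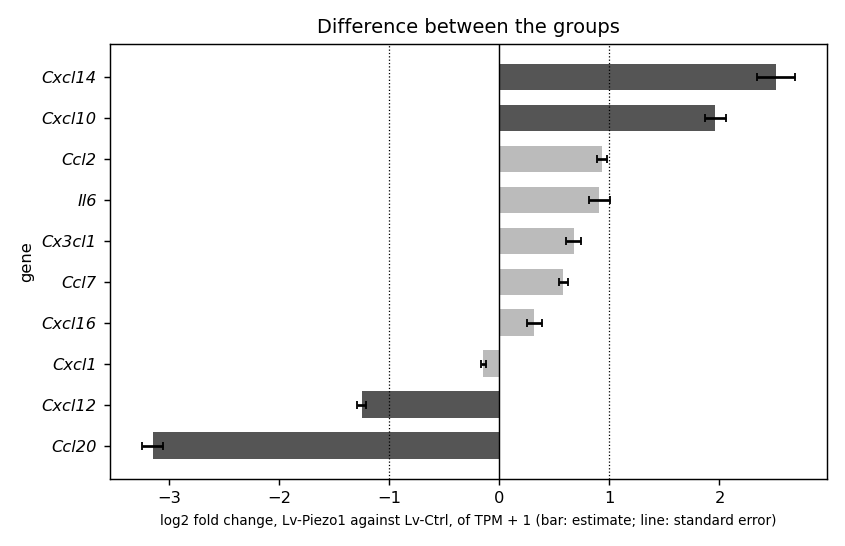
Fitted log2 fold change of TPM + 1, Lv-Piezo1-labelled against Lv-Ctrl samples, for each gene (bar, n = 4 a group) with its standard error (line). Dotted lines mark the fold threshold at 1 and -1. Dark bars are the 4 called genes, Cxcl14 and Cxcl10 above and Cxcl12 and Ccl20 below, and Ccl2 and Il6 end just short of the upper threshold.

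Because TPM is scaled to transcript length, the members can be ordered by level. In Lv-Ctrl the order was Cxcl1, Ccl2, Ccl7, Ccl20, Cxcl12, Cxcl16, Cx3cl1, Il6, Cxcl10 and Cxcl14, and no neighbours in it overlapped in their sample values. In the samples labelled Lv-Piezo1 the order was Cxcl1, Ccl2, Ccl7, Cxcl12, Cxcl16, Cxcl10, Cx3cl1, Il6, Ccl20 and Cxcl14. Ccl20 thus stood at rank 4 in the first and at rank 9 in the second, and Cxcl10 at rank 9 and rank 6. The values of Cx3cl1 and Il6 overlapped in the second order, as did those of Il6 and Ccl20.

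The summed TPM of all chemokine ligands was slightly lower in the samples labelled Lv-Piezo1, without overlap, and had a different makeup. Of 36 ligands listed, 34 had a row and 20 of these were under 1 TPM in every sample. The sum was 3734 ± 43.0 TPM in Lv-Ctrl (3676 to 3780) and 3615 ± 24.2 TPM in the samples labelled Lv-Piezo1 (3580 to 3635). These sums and those below are of TPM as deposited, and were neither tested nor repeated under another scaling. Cxcl1 made up 79.0% and 73.6% of it. Without Cxcl1 the sum was 784.9 ± 15.7 TPM (766.6 to 800.2) and 955.5 ± 12.2 TPM (939.0 to 968.4). The share of Ccl2 was 6.12% in Lv-Ctrl and 12.1% in the samples labelled Lv-Piezo1, and that of Ccl7 4.6% and 7.11%. Ccl20 made up 3.59% and 0.396%, and Cxcl12 2.83% and 1.21%. Cxcl10 contributed 0.133% and 0.612%.

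**Figure D3:**
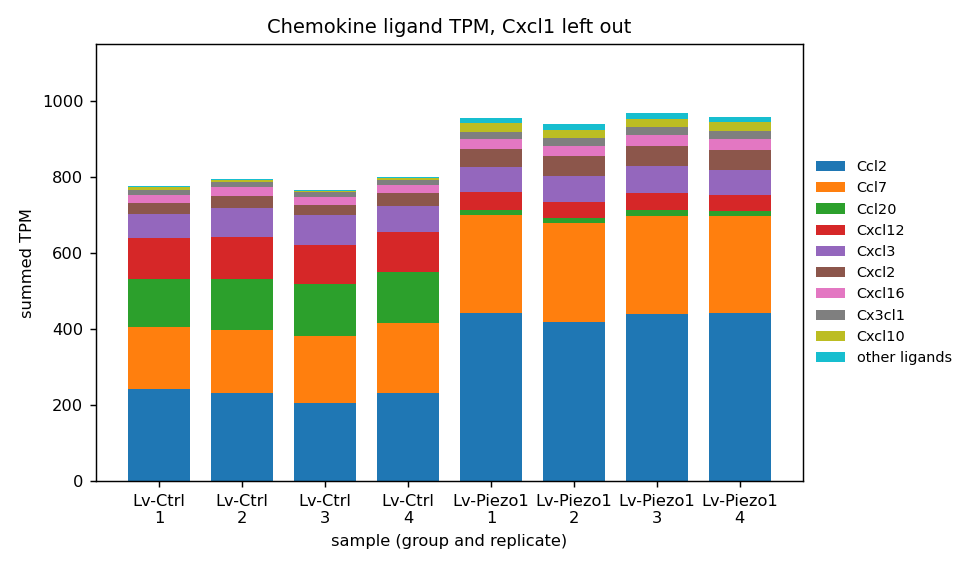
Summed TPM of the chemokine ligands other than Cxcl1 in each of the 8 samples, stacked by gene. The Lv-Ctrl sums lie between 766.6 and 800.2 TPM and the Lv-Piezo1-labelled sums between 939.0 and 968.4 TPM. The Ccl2 and Ccl7 segments are taller and the Ccl20 and Cxcl12 segments shorter in the second group.

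Among the 27 other chemokine ligands, 4 passed the filter on low values. Of those 4, 1 rose and none fell (25.0%, beside 7.67% of all genes), with a median log2 fold change of 0.569. Cxcl6, a ligand of Cxcr1 and Cxcr2, rose from 0.63 ± 0.229 to 5.643 ± 0.472 TPM (log2 fold change 2.04, adjusted p = 1.22e-06), and like Cxcl14 passed the filter through the samples labelled Lv-Piezo1. Ccl27, which draws T cells to skin, had 1.353 ± 0.338 and 2.078 ± 0.555 TPM and did not pass the test (log2 fold change 0.38, adjusted p = 0.0631). The T cell and monocyte attractants Ccl3, Ccl4 and Ccl5 were below the filter, with group means of at most 0.99 TPM.

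The cells held almost no transcript for the measured signalling receptors of these chemokines. Of 23 chemokine receptor genes, 22 had a row, all but Ccr1. The filter was passed by 3, and 2 of them fell (66.7%, beside 7.67% of all genes). Ccr6, the receptor of Ccl20, was listed at 0 in every sample. Ccr2, a receptor of Ccl2 and Ccl7, was at 0 in 7 of 8 samples and at 0.06 TPM in the other. Cxcr2 and Cx3cr1 did not exceed 0.02 TPM and Cxcr4 did not exceed 0.1 TPM. Cxcr3, the Cxcl10 receptor, was at 0.38 to 0.69 TPM in Lv-Ctrl and 0.42 to 1.14 TPM in the samples labelled Lv-Piezo1, and Cxcr6 at 0.13 to 0.42 and 0.14 to 0.18 TPM. The receptors with the highest levels, Ackr3 and Ackr4, were atypical ones, which bind and internalise chemokines without G protein signalling. Ackr3, the scavenger of Cxcl12, was at 65.3, 67.4, 56.0 and 59.0 TPM in Lv-Ctrl and at 30.4, 27.7, 31.9 and 31.6 TPM in the samples labelled Lv-Piezo1. It fell from 61.91 ± 5.32 to 30.4 ± 1.9 TPM, right at the fold threshold (log2 fold change -1.0, SE 0.0685, adjusted p = 2.72e-06). It was short of that threshold without Lv-Ctrl sample 1 (-0.974), Lv-Ctrl sample 2 (-0.959) or sample 2 of those labelled Lv-Piezo1 (-0.958). Ackr4, whose ligands include Ccl19, Ccl21 and Ccl25, was at 110.9, 111.5, 97.4 and 103.2 TPM in Lv-Ctrl and at 24.7, 25.3, 27.5 and 26.0 TPM in the samples labelled Lv-Piezo1. It fell from 105.7 ± 6.73 to 25.84 ± 1.19 TPM (log2 fold change -1.99, SE 0.0535, adjusted p = 7.96e-09). Of the ligands just named, Ccl19 and Ccl21 were at 0 in every sample and Ccl25 did not exceed 0.06 TPM. Cxcr5, the third of those tested, was at 1.517 ± 0.293 and 1.388 ± 0.218 TPM (adjusted p = 0.639). So Cxcl12 and Ackr3 both fell, and Cxcr4 was close to 0.

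The ligands that signal through the same gp130 subunit as Il6 moved unevenly. Of 15 genes for interleukin 6 family ligands and receptors, 9 were tested. Among those 9, 2 rose and 1 fell (33.3%, beside 7.67% of all genes), with a median log2 fold change of 0.0059 (-0.0933 under median-ratio scaling). Il11, a profibrotic cytokine of this family, far exceeded Il6, at 1815, 1739, 1613 and 1692 TPM in Lv-Ctrl and 491.1, 490.0, 499.4 and 498.1 TPM in the samples labelled Lv-Piezo1. Its mean fell from 1715 ± 84.4 to 494.6 ± 4.79 TPM (log2 fold change -1.79, SE 0.0367, adjusted p = 1.57e-09), the opposite direction to Il6. Lif rose from 9.42 ± 0.766 to 37.2 ± 1.87 TPM (log2 fold change 1.88, adjusted p = 2.89e-08). Cntf, a neurotrophic ligand, rose from 4.565 ± 0.782 to 19.17 ± 0.654 TPM (log2 fold change 1.87, adjusted p = 4.63e-07). Ctf1, another ligand of the family, was lower, at 7.0 ± 0.651 and 4.685 ± 0.735 TPM (log2 fold change -0.50, adjusted p = 0.00286). Among the receptors, Il6r was near the filter in both groups, at 1.575 ± 0.186 and 1.59 ± 0.263 TPM (adjusted p = 0.972). Il6st was higher in the samples labelled Lv-Piezo1, at 34.94 ± 3.76 and 56.78 ± 4.14 TPM (log2 fold change 0.69, adjusted p = 9.72e-05). Il11ra1, the receptor of Il11, was lower, at 71.4 ± 3.25 and 62.51 ± 1.51 TPM (log2 fold change -0.19, adjusted p = 0.00311). Osmr, a partner of gp130 in the oncostatin M receptor, was at 5.71 ± 0.88 and 11.93 ± 1.28 TPM (log2 fold change 0.95), and passed the fold threshold without Lv-Ctrl sample 2, at 1.02.

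**Figure D4:**
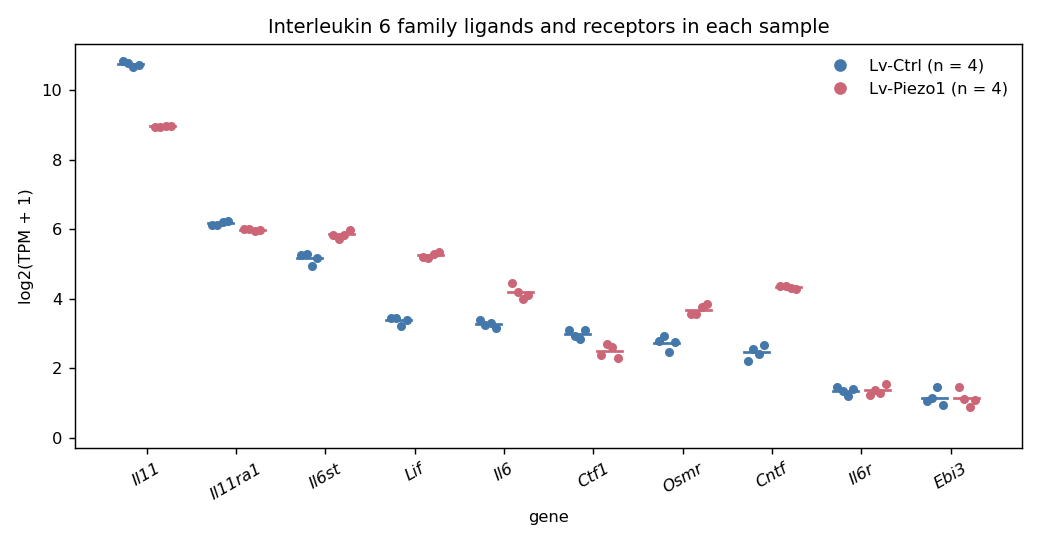
Level as log2(TPM + 1) of Il6 and of the interleukin 6 family ligands and receptors that passed the filter, in the 4 Lv-Ctrl (blue) and 4 Lv-Piezo1-labelled (red) samples. Points are samples and bars are group means. Il11 lies highest in both groups and lower in the second, whereas Il6, Lif and Cntf lie higher in the second, and Il6r and Ebi3 overlap.

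Genes of the JAK-STAT3 pathway, through which Il6 signals, were mostly higher by small amounts. All 13 with a row were tested, and 2 rose and none fell (15.4%, beside 7.67% of all genes). By adjusted p alone, 11 were higher and none lower, with a median log2 fold change of 0.499. Of all 13103 tested genes, 5489 were higher by adjusted p alone, and the median was 0.142. The 11 became 8 under median-ratio scaling and 7 under quantile normalization. The feedback inhibitor Cish rose from 9.662 ± 0.848 to 21.18 ± 0.638 TPM (log2 fold change 1.06, adjusted p = 1.02e-06), but was at 0.908 and 0.897, short of the fold threshold, under those scalings. Ptpn6, a phosphatase best known from blood cells, rose from 1.35 ± 0.407 to 5.902 ± 2.84 TPM with wide spread (log2 fold change 1.48, adjusted p = 0.00154). Stat3 itself was at 40.58 ± 4.59 and 65.05 ± 5.18 TPM (log2 fold change 0.67, adjusted p = 1.57e-04), and its target Socs3 at 34.83 ± 0.841 and 49.63 ± 1.48 TPM (log2 fold change 0.50, adjusted p = 3.98e-06).

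Of 17 tested of 18 NF-kB and C/EBP factors and inhibitors, 1 rose and none fell (5.88%, beside 7.67% of all genes), with a median log2 fold change of 0.184 that became 0.0537 under median-ratio scaling and -0.0016 under quantile normalization. By adjusted p alone, 9 were higher and 3 lower, beside 5489 and 2137 of all 13103 tested genes. Under median-ratio scaling 6 of the list were higher and 5 lower. The gene that rose was Tnfaip3 (A20), a negative regulator of NF-kB, from 2.18 ± 0.407 to 7.793 ± 0.771 TPM (log2 fold change 1.47, adjusted p = 5.09e-06). Of 13 tested of 18 upstream cytokines and receptors, 2 rose and none fell (15.4%, beside the same 7.67%), with a median of 0.256, or 0.101 under median-ratio scaling. Il1rap, the shared subunit of the interleukin 1 receptor, rose from 5.168 ± 0.521 to 14.6 ± 1.29 TPM (log2 fold change 1.34, adjusted p = 1.44e-06). The receptor antagonist Il1rn was at 1.53, 0.13, 0.40 and 0.36 TPM in Lv-Ctrl and at 3.97, 4.02, 1.25 and 4.12 TPM in the samples labelled Lv-Piezo1. It rose (log2 fold change 1.43, adjusted p = 0.00475) although sample 3 of the second group lay below sample 1 of Lv-Ctrl, and it passed the filter through the second group.

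The tested interferon-stimulated genes and mRNA decay regulators were each divided between higher and lower levels. Of 12 tested of 18 interferon-stimulated genes, 2 rose and none fell (16.7%, beside 7.67% of all genes). By adjusted p alone 4 were higher and 4 lower, where 58.2% of all tested genes passed. The median was 0.0802 (-0.0524 under median-ratio scaling). Ifit3 rose from 0.925 ± 0.123 to 4.027 ± 0.195 TPM (log2 fold change 1.39, adjusted p = 1.89e-06), and Oasl from 0.815 ± 0.148 to 3.655 ± 0.572 TPM (log2 fold change 1.35, adjusted p = 1.61e-05). Both passed the filter only through the samples labelled Lv-Piezo1, and no gene of the list was called with the filter at a mean TPM of 5. Of the 6 genes below the filter, Isg15 was at 0 in Lv-Ctrl and at 0.33 to 2.77 TPM in the samples labelled Lv-Piezo1. Ifit1 (means 0.035 and 0.3375 TPM) and Rsad2 (0.075 and 0.285 TPM) were likewise higher without overlap. The groups overlapped for Mx1 and Mx2, and Oas1a was at 0 throughout. Usp18, an interferon-stimulated protease chosen after its value was seen, was at 19.68 ± 1.51 and 9.572 ± 1.62 TPM (log2 fold change -0.98). It passed the fold threshold without Lv-Ctrl sample 4 (-1.02) and without sample 1 (-1.02) or 3 (-1.04) of those labelled Lv-Piezo1, as it did under median-ratio scaling (-1.13), quantile normalization (-1.14) and a constant of 0.1 (-1.05). Among the 9 regulators of cytokine mRNA decay none was called, and the median was 0.224. By adjusted p 5 were higher and 1 lower, beside the same 58.2% of all genes. Under median-ratio scaling 4 were higher and 3 lower with a median of 0.0637, and under quantile normalization 5 and 4. The lower one, chosen after its value was seen, was Zfp36l1, which binds AU-rich elements, at 399.0 ± 62.6 and 204.3 ± 12.3 TPM (log2 fold change -0.95, adjusted p = 6.87e-05). It passed the fold threshold under median-ratio scaling, at -1.11, and without Lv-Ctrl sample 3, at -1.06. Of 9 tested of 10 proteases and binding proteins that process or hold chemokines, 1 rose and none fell (11.1%, beside 7.67% of all genes), with a median of 0.486. Mmp9, which cleaves several CXC chemokines, rose from 4.505 ± 0.532 to 24.42 ± 1.31 TPM (log2 fold change 2.21, adjusted p = 3.61e-08).

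The genes whose levels followed Ccl20 and Cxcl14 most closely over the 8 samples were named by Pearson's r of log2(TPM + 1), among tested genes with a gene symbol other than a clone or locus name. For Ccl20 these were Colq (r = 0.9989), which anchors acetylcholinesterase, the calcium-binding protein gene S100b (r = 0.9985) and the lipoprotein gene Apoe (r = 0.9982). Apoe was at 203.1 TPM on average in Lv-Ctrl and 21.71 TPM in the samples labelled Lv-Piezo1. For Cxcl14 they were Cybc1 (r = 0.9978), a chaperone of the phagocyte oxidase, the fatty acid-binding protein gene Fabp3 (r = 0.9965) and the RNA helicase gene Dhx34 (r = 0.9962). These values describe samples in 2 separated groups, so that any gene differing cleanly between the groups scores high, and r was above 0.95 for 746 genes with Ccl20 and 1682 with Cxcl14.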

How the data were processed

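Libraries were prepared with a SMARTER mRNA-Seq kit and sequenced on the Illumina Novaseq platform. According to the study's methods, reads were mapped to the rat genome with HISAT2 and assembled with StringTie. The submitters' processing notes name the build mm10 and DESeq2, and the rat build, the annotation and the use of strand are not given in the sources used here. The authors deposited one table of TPM per gene with 8 sample columns, which was used as deposited, plus group means, which were not used. Read counts were not analysed here.

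Groups were taken from the sample titles. With limma 3.58.1 in R 4.3.3, log2(TPM + 1) was fitted over 13103 genes, those whose TPM averaged 1 or more (moderation with a trend, Benjamini-Hochberg over all of them). Called genes had an adjusted p under 0.05 and a log2 fold change of 1 or more in size. Fold changes are on this log2(TPM + 1) scale and understate those of low genes, and the ratios given are of mean TPM. Of the table's rows, 7629 carried no gene symbol. The study describes 4 biological repeats for its sequencing, and counts the cells of a single isolation under their different treatments as a repeat. By that account samples of both groups shared isolations, but which samples did is not given in the sources used here. The main fit used no block, so its p-values do not take shared isolations into account. P-values measure the spread between these samples.

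The members and gene lists were chosen with earlier results of these data known. All members, Piezo1, the members' main receptors and up to 3 called genes per list and direction with the largest fold change are named, with further genes as values in context. A gene of the interleukin 6 family list is not reported here and is left out of that list's counts, median and plot. Promoters came from RefSeq (GRCr8). Alternatives were a constant of 0.1, no filter or one at an average TPM of 5, quantile normalization, median-ratio scaling, moderation without a trend, a replicate block, no fold threshold, and leaving out each sample.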

Additional observations from a re-analysis of the deposited data

Results flagged for a closer look

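In 4 of the 20 member-by-group sets of 4 samples, 1 sample stood apart from the other 3, its gap to the nearest, as a share of the group's whole range, being above Dixon's critical value. Chance gives about 1 such set in 20. In the samples labelled Lv-Piezo1, Ccl20 in sample 3 was at 17.98 TPM beside 12.8 to 13.3 in the others (gap over range 0.907), and Ccl2 in sample 2 was at 419.3 TPM beside 439.7 to 443.7 (0.834). Cx3cl1 in sample 4 of that group was at 20.9 TPM beside 20.01 to 20.13 (0.865), where the group's coefficient of variation was 2.02%. In Lv-Ctrl, Cxcl14 was at 0.27 TPM in sample 2 and listed at 0 in the others (1.0). With the others equal, that ratio is fixed whatever the value of sample 2, and the chance rate does not apply to it. No such value brought the groups into overlap.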

How the results depend on the processing

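No member reversed its direction in 149 refitted values, and Ccl20, Cxcl10, Cxcl12 and Cxcl14 were called in each fit that tested them. With a mean TPM of at least 5, Cxcl14 was not tested, 1 member and 372 of the tested genes were called higher. With no fold threshold 7 members were called higher and 3 lower, with 5489 genes higher and 2137 lower. Leaving out 1 sample left the member calls at 2 higher and 2 lower. With replicate number as a block the calls were 2 and 2 members and 644 and 360 genes. The members' adjusted p-values in limma were then larger, from 3.96e-06 for Ccl20 to 0.0118 for Cxcl16. Whether equal numbers mark samples of the same isolation is not given in the sources used here. Same-numbered samples' deviations correlated at -0.0303, -0.0576, -0.051 and -0.0124, and other pairings lay between -0.0867 and 0.112. With every pairing this low, these values cannot decide which samples shared an isolation. Of 288 recounted list totals, 32 moved by over 1.5 times or to or from 0, 13 of them without the fold threshold. The cause of these changes was not tested. TPM gives no depth, so that no counting limit could be set for genes near 0.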

Other observations

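Genes that release or hold chemokines at the cell surface are given here as values chosen after they were seen. None passed the fold threshold. Adam17, which sheds Cx3cl1 and Cxcl16, was at 39.36 ± 3.97 TPM in Lv-Ctrl and 55.42 ± 4.39 TPM in the samples labelled Lv-Piezo1 (adjusted p = 7.57e-04), and its partner Rhbdf2 at 17.26 ± 1.19 and 27.25 ± 0.62 TPM (adjusted p = 9.28e-06). Adam10, the other sheddase of these ligands, was at 13.17 ± 2.35 and 11.68 ± 0.959 TPM (adjusted p = 0.324). Of the syndecans, whose heparan sulphate binds chemokines, Sdc1 was higher (52.81 ± 3.55 and 92.1 ± 1.57 TPM, adjusted p = 1.31e-06) and Sdc4 lower (518.2 ± 9.45 and 415.5 ± 12.3 TPM, adjusted p = 2.09e-05). Mmp2, which cleaves Cxcl12 and Ccl7, was lower, at 1216 ± 61.4 and 760.4 ± 25.6 TPM (log2 fold change -0.68, adjusted p = 1.46e-06).

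On the interleukin 1 axis upstream of Il6 and Cxcl1, Il1a was at 19.12 ± 1.22 and 30.62 ± 1.46 TPM (adjusted p = 1.06e-05) and its receptor Il1r1 at 12.01 ± 0.886 and 20.38 ± 1.03 TPM (adjusted p = 1.08e-05), both higher in the samples labelled Lv-Piezo1. The other ligand Il1b was below the filter, with means of 0.3525 TPM in Lv-Ctrl and 0.25 TPM in the second group, and its groups overlapped. The antagonist Il1rn rose, as given above, and Cxcl1 was lower. Of the 17 tested NF-kB and C/EBP genes, 9 were higher in the samples labelled Lv-Piezo1 by adjusted p and 3 lower. Of all 13103 tested genes, 5489 were higher and 2137 lower. Under median-ratio scaling the list's counts were 6 and 5. In the main fit the higher ones included Rela, Relb, Nfkbie and Bcl3 (log2 fold changes 0.27, 0.43, 0.58 and 0.50). Of the lower ones, Nfkbia, the inhibitor IkB-alpha, was at 108.5 ± 7.97 and 83.72 ± 2.2 TPM, Nfkbiz, a nuclear cofactor at the Il6 promoter, at 91.02 ± 7.5 and 60.86 ± 3.72 TPM, and Cebpd, a C/EBP factor, at 269.2 ± 8.71 TPM in Lv-Ctrl, with log2 fold changes of -0.37, -0.57 and -0.43 (adjusted p = 3.13e-04, 8.49e-05 and 6.17e-05).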
